A study of Mus musculus with 3 samples.

Results

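The ribosome biogenesis and nucleolar genes are a list of 38 genes, among the 27998 genes counted, that make ribosomes or drive their making: RNA polymerase I subunits and a cofactor, MYC and a growth enzyme linked to it, nucleolar proteins, and assembly factors of both ribosomal subunits. The genes were listed by what their products do, though with earlier results of these data known, and genes for ribosomal proteins are not among them. All 38 were found in the 3 count matrices, 1 of them (*Utp4*) under its older symbol *Cirh1a*. Summed over the kept cells, their level per 1000000 UMIs (CPM, a UMI being 1 counted molecule of RNA) was 1864 in the young library, 1392 in the old library and 2459 in the control library. The order old, young, control held for 33 of the 38 genes when taken one by one, a count given without a background share. The genes followed *Mpo*, the gene for the granule enzyme myeloperoxidase: in every library their summed level was at least 3.51 times higher in cells with much *Mpo* RNA than in cells with little. The lower level of the old library than of the young library was seen in cells with little *Mpo* and not in cells with much of it. That difference was smaller without cells that carried markers of another blood cell type, which were 16.5% of the young library. In the lowest band of *Mpo* the log2 ratio was then -0.32, against -0.69 with all kept cells. The old library was below the control library in every band of *Mpo*.

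CD133+ cells came from C57BL/6 mouse bone marrow by sorting, and 3′ RNA-seq of single cells (10x Chromium) gave 3 libraries, labelled young, old and control, in a study of how such cells change with age. The young and control mice were 3 months old by their labels. The old mice were 27 months old by theirs and 18.5 months old by the series' design text. Each library pooled cells of 3 mice, no treatment, allele or transgene is named for any of them, and there is 1 library a group, so no test was possible, and age, mice and library cannot be told apart. The intervals in this text are exact at 95% and cover counting error only. As a limit of size, a gene is called higher or lower where 2 libraries differ by at least 1.5 times and the gene reaches 10 CPM in either.

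The kept cells numbered 7378 in the young, 9681 in the old and 9780 in the control library, with 74708327 to 119588365 UMIs in all and a median of 9560.5 to 12690 UMIs a cell. *Prom1*, which encodes CD133, was at 43.8 to 52.6 CPM. The cells carried the markers of neutrophil precursors (6 genes, 105298 to 125375 CPM in sum), whereas 6 endothelial markers summed to 2.56 to 5.18 CPM and *Cdh5*, the gene for the adhesion protein of endothelial junctions, had 37, 0 and 3 UMIs in the young, old and control libraries. The endothelial name that the study gives these cells is therefore not used here. Pairs of libraries shared 120 to 161 cell barcodes, at most 1.52% of a library. The young library stood apart in cells with markers of another blood cell type (at least 3 UMIs from at least 2 genes of 1 of 6 lists): these were 16.5% of its cells, against 2.49% of the old and 1.82% of the control cells. Levels and bands below are for all kept cells. Counts and medians over whole libraries, and summed ratios of the outer bands, that rest on the young library are mostly also given without these cells. So are a few single genes and some of the counts by band.

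Ribosomes are built in the nucleolus, where RNA polymerase I transcribes the long precursor of the ribosomal RNAs. Box C/D and box H/ACA ribonucleoproteins then modify the precursor, guided by small nucleolar RNAs, and assembly factors fold and cut it into the small (40S) and large (60S) subunits. MYC raises the transcription of many of these genes. In the bone marrow, dividing myeloid precursors at the promyelocyte stage, which make *Mpo* and *Elane* (neutrophil elastase), are rich in ribosomes, and the cells stop dividing and shrink their nucleoli as they mature into neutrophils.

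RefSeq start site windows of GRCm38.p6, from 250 bases before to 50 bases after the start, were at hand for 30 of the 38 genes. They were searched on both strands for CACGTG, the palindromic E-box that MYC binds together with MAX. Counted by gene, the motif was found for 5 of these 30 genes (16.7%), for 20 of 92 other ribosome biogenesis genes with a window (21.7%) and for 2187 of all 27025 genes with a window (8.09%). The 5 windows that hold it are those of *Utp4*, *Wdr43* and *Tsr1*, of the small subunit, and of *Pes1* and *Nop2*, of the large subunit, and they are printed to show the motif (capitals) in its surroundings. All 5 genes lie on the plus strand.
Utp4, chr8:106893390-106893689: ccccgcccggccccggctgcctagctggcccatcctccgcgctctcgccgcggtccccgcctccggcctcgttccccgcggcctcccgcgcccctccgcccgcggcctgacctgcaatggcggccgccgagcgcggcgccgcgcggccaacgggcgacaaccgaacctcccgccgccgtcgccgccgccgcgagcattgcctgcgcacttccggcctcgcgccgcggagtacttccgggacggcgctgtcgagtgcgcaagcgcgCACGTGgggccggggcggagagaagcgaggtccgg
Wdr43, chr17:71615965-71616264: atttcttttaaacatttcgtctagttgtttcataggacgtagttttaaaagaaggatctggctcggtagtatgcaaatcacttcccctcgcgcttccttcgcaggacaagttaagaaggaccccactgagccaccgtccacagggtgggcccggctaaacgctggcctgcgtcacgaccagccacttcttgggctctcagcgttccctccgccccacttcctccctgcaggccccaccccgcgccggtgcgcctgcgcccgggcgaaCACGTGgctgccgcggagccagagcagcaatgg
Tsr1, chr11:74897830-74898129: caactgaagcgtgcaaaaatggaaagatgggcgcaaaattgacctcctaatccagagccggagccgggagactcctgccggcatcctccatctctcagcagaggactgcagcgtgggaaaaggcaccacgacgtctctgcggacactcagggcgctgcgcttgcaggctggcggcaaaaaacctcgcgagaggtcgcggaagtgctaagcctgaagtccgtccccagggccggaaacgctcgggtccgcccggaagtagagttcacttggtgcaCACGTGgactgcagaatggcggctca
Pes1, chr11:3963725-3964024: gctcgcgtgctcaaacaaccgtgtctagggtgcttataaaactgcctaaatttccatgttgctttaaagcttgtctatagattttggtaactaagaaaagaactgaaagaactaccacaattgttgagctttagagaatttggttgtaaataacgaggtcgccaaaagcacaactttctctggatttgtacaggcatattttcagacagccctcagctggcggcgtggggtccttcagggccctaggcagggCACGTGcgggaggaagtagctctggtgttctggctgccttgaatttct
Nop2, chr6:125131633-125131932: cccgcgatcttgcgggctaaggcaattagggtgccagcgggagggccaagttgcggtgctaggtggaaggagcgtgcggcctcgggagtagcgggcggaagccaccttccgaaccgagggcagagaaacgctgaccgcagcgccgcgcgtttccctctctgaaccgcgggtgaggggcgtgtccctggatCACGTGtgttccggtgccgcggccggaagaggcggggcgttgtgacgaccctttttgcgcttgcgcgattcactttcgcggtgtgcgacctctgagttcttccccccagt
The match is a description of these letters and not of binding. The 8 genes without a window here are *Myc*, *Srm*, *Npm1*, *Fbl*, *Rrp12*, *Bop1*, *Rrs1* and *Eif6*.

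Cells were divided by their *Mpo* UMIs per 10000 UMIs into 5 bands: under 2, 2 to under 5, 5 to under 20, 20 to under 60, and 60 and over. The bands are ranges of 1 gene and not cell types, and 5.61%, 6.89% and 4.71% of the young, old and control cells lay within 10% of the cut at 2, and 2.101%, 2.34% and 2.18% within 10% of the cut at 60. The highest band held 15.3% of the young, 6.89% of the old and 10.95% of the control cells, and the lowest 19.2%, 24.3% and 14.6%. *Mpo* is 1 of 4 promyelocyte markers, so the other 3 alone are given: they had a median of 363 to 387 UMIs per 10000 a cell in the highest band and 12.4 to 18.5 in the lowest. Neutrophil precursor markers had the other order, 164 to 177 and 1299 to 1648. A band did not hold like cells in every library. In the band 5 to under 20, all 4 promyelocyte markers had a median of 27.1 in the young, 65.7 in the old and 34.7 in the control library. Precursor markers there were at 1430, 1005 and 1423. In the highest band *Mpo* was at 10225, 8150 and 9142 CPM. Ratios within a band therefore do not compare cells of the same stage.

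The summed level of the 38 genes was higher in each higher band of all 3 libraries. It was 1186, 1193, 1335, 2396 and 4161 CPM from the lowest to the highest band in the young library. In the old library it was 735, 805, 1217, 2579 and 4697 CPM. In the control library it was 1083, 1208, 1658, 4340 and 6999 CPM. The highest band was thus 3.51 times (log2 ratio 1.81, 1.78 to 1.84) above the lowest in the young, 6.39 times (2.68, 2.65 to 2.70) in the old and 6.46 times (2.69, 2.67 to 2.72) in the control library. Without the cells marked as other blood cells the young ratio was 4.51 times (2.17, 2.14 to 2.20). In single cells of the highest band, the 38 genes together had a median of 38.2 UMIs per 10000 in the young (10th to 90th percentile 22.3 to 63.0), 45.4 in the old (26.3 to 67.3) and 68.6 in the control library (39.1 to 93.1).

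**Figure D1:**
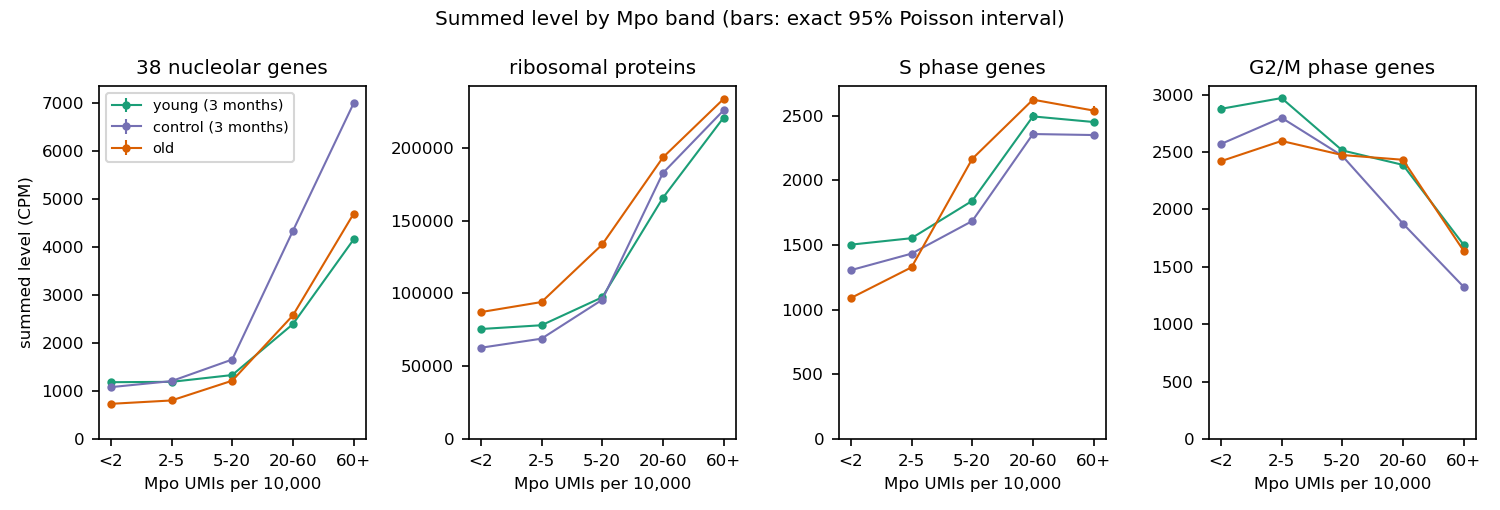
Summed level in CPM against the band of *Mpo* UMIs per 10000 UMIs in the young, control and old libraries, for the 38 nucleolar genes, 86 ribosomal protein genes, 20 S phase genes and 20 G2/M genes; bars, often smaller than the points, are exact 95% Poisson intervals. The 38 genes reach 4161, 4697 and 6999 CPM in the highest band of the young, old and control libraries, while G2/M genes are lower there than in the lowest band.

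Gene by gene, every member that reached 10 CPM in either of the outer bands was higher in the highest band: 34 of 34 in the young, 34 of 34 in the old and 36 of 36 in the control library. By at least 1.5 times it was 33, 34 and 36 of them, against 46.7%, 55.8% and 54.2% of all genes tested. The medians of the log2 ratio were 2.07, 3.29 and 2.97 against 0.54, 0.71 and 0.68 over all genes. The number 33 leaves out *Eif6* in the young library, at 254 over 192 CPM. Genes under 10 CPM in the lowest band, such as *Tsr1* and *Rrp9*, passed the minimum only through the highest band, which fixed their direction. The shares over all genes rest on the same minimum. Members at 10 CPM or more in the lowest band were all higher in the highest band too.

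**Figure D2:**
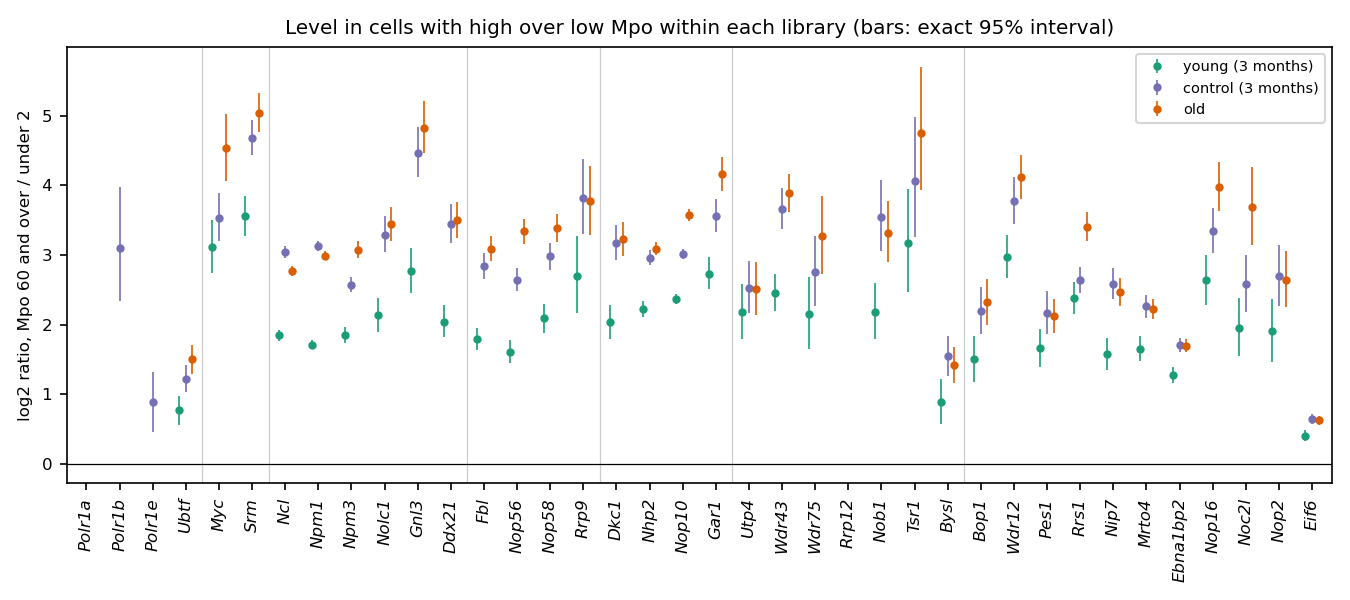
Log2 ratio of the level in cells with 60 or more *Mpo* UMIs per 10000 over that in cells with under 2, for each gene that reached 10 CPM in either band, within the young, control and old libraries; bars are exact 95% intervals and grey lines part the 7 roles. *Srm* is the highest in each library, with 3.56, 4.69 and 5.05 in the young, control and old libraries, and *Eif6* the lowest, with 0.40, 0.64 and 0.62.

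*Srm* encodes spermidine synthase, a polyamine enzyme and known MYC target (chr4:148591503-148594993, plus strand, GRCm38). Its level from the lowest to the highest band was 9.04, 10.1, 10.9, 37.3 and 106 CPM in the young library, 4.32, 5.32, 7.53, 41.2 and 143 CPM in the old library, and 10.99, 14.5, 24.2, 123 and 283 CPM in the control library. The control library was the highest in all 5 bands, and the old library was the lowest in the 3 lower bands and between the others in the 2 upper bands. *Myc* (chr15:61985391-61990374, plus strand) encodes the transcription factor itself. It was at 5.11, 4.64, 7.39, 16.1 and 44.3 CPM in the young library, at 1.59, 1.65, 4.55, 12.9 and 36.9 CPM in the old library and at 6.17, 6.49, 9.82, 28.6 and 71.4 CPM in the control library. The old library was the lowest for *Myc* in every band, unlike for *Srm*.

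The RNA polymerase I genes differed among themselves in their change with *Mpo*. *Ubtf*, the factor that keeps ribosomal DNA open for RNA polymerase I, was at 24.0 CPM in the lowest and 40.7 CPM in the highest band of the young library, 15.2 and 42.8 CPM in the old library, and 23.4 and 54.7 CPM in the control library. *Polr1a*, the largest subunit of the enzyme, stayed under 10 CPM in all bands of all libraries (2.15 to 7.84 CPM). *Polr1b*, the other catalytic subunit, went from 0.79 to 7.32 CPM in the young, from 0.57 to 6.51 CPM in the old and from 1.20 to 10.4 CPM in the control library, which is 9.31, 11.5 and 8.61 times. With so low a level in the lowest band, the intervals were wide (log2 3.22, 2.28 to 4.32, then 3.52, 2.69 to 4.44, and 3.11, 2.33 to 3.98). *Polr1e*, an accessory subunit, had ratios of 1.13, 1.997 and 1.85 between the outer bands, and its young interval included no difference (log2 0.18, -0.30 to 0.67). The summed ratio of the 4 genes was 1.78, 2.72 and 2.49, beside 10.6, 30.4 and 20.7 for *Myc* and *Srm* together. Most UMIs of the 4 genes are those of *Ubtf*, whose own ratios were 1.70, 2.82 and 2.34.

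Over all kept cells, the old library was compared with the young library first, since the study asks what differs with age. Of the 38 genes, 35 had a log2 ratio below 0, a count given without a share over all genes. The median of the 38 was -0.47. Of the 27 that reached 10 CPM, 25 were below 0 with a median of -0.44, against a median of -0.15 over all 5761 genes tested. None was higher by 1.5 times (background 4.36%), and 6 were lower by 1.5 times (background 14.7%): *Myc*, *Fbl*, *Nop10*, *Npm3*, *Ddx21* and *Gnl3*. Of these, *Myc* passed the minimum only through the young library, which fixed its direction. The share of 6 in 27 lies near the background, so the number past the limit does not describe the list. The median over all genes was below 0 too, so the direction itself is not particular to the list. The median of the members was further below 0. Without the marked cells 22 of 26 were below 0, with a median of -0.28, and 4 were lower by 1.5 times (background 9.67%): *Myc* (-0.99), *Nop10* (-0.67), *Npm3* (-0.62) and *Fbl* (-0.60). *Ddx21* (-0.49) and *Gnl3* (-0.33) were then within the limit.

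**Figure D3:**
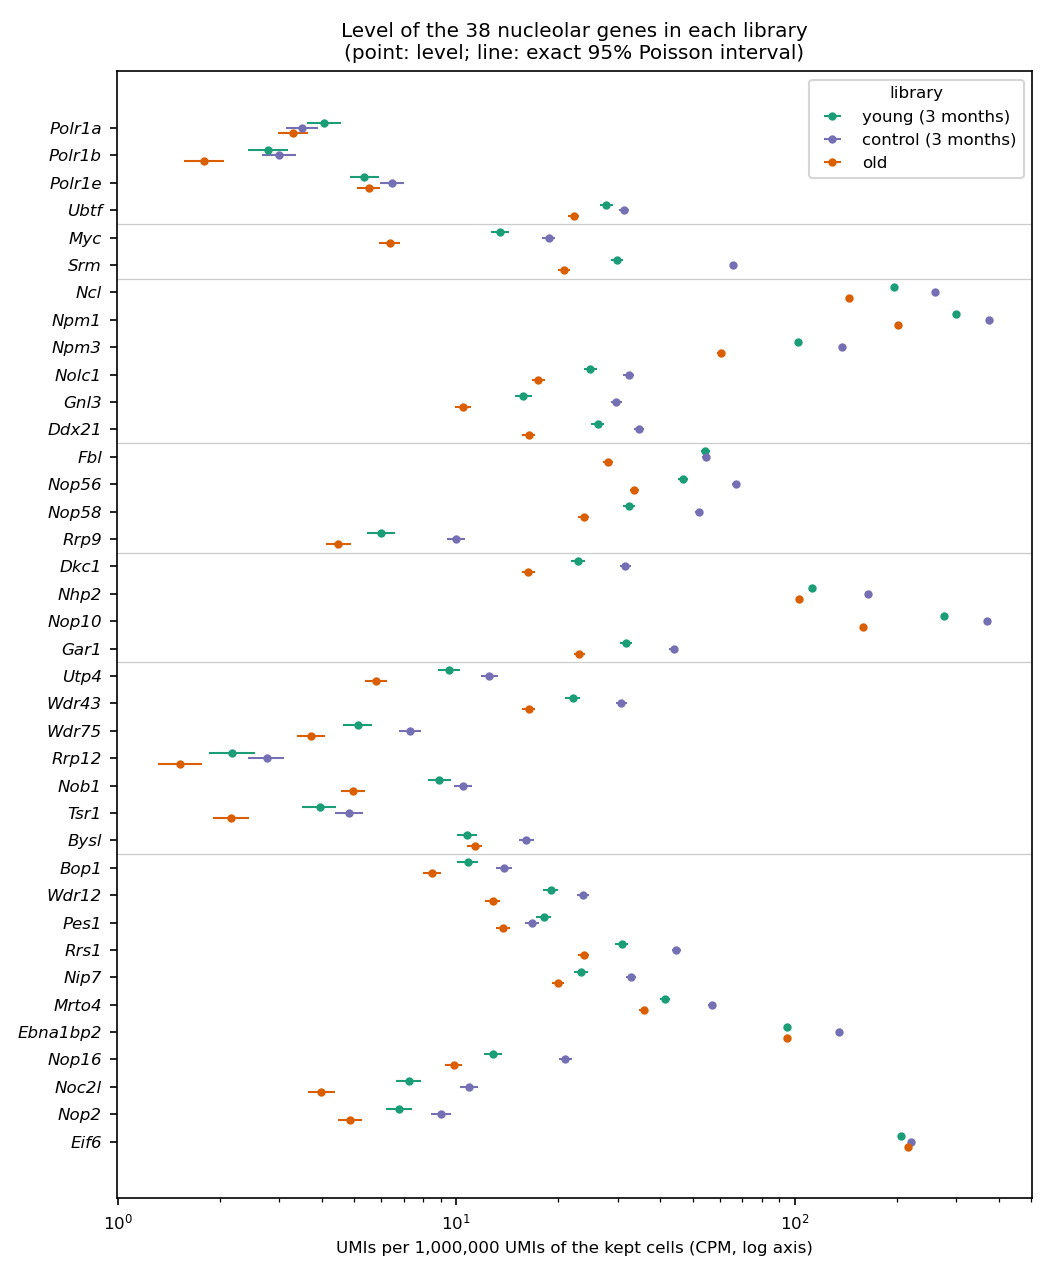
Level in CPM (log axis) of each of the 38 genes in the kept cells of the young, control and old libraries, grouped by role; lines, often shorter than the points, are exact 95% Poisson intervals. The control library lies to the right and the old library to the left for most genes, as for *Myc* at 18.7 and 6.37 CPM, whereas *Eif6* is at 206 to 220 CPM in all 3.

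Within the RNA polymerase I machinery, *Ubtf* was at 27.7 CPM in the young, 22.2 CPM in the old and 31.3 CPM in the control library. *Polr1a* was at 4.07, 3.29 and 3.51 CPM, *Polr1b* at 2.78, 1.80 and 3.00 CPM, and *Polr1e* at 5.35, 5.51 and 6.47 CPM in the same order. Over all kept cells none of the 4 was called higher or lower in any comparison, and the 3 subunits did not reach 10 CPM. *Polr1b* was lower by at least 1.5 times in the old than in the young and the control library. It was not called because of its low level. For *Polr1e* the old over young interval included no difference (log2 0.04, -0.14 to 0.22), as did the old over control interval of *Polr1a* (-0.09, -0.31 to 0.12).

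*Myc* was at 13.5 CPM (12.6 to 14.3) in the young, 6.37 CPM (5.93 to 6.84) in the old and 18.7 CPM (17.9 to 19.6) in the control library, which is a log2 ratio of -1.08 (-1.22 to -0.94) for old over young and -1.56 (-1.68 to -1.43) for old over control. *Srm* was at 29.8, 20.8 and 65.8 CPM. Its log2 ratio was -0.52 (-0.60 to -0.43) for old over young, -1.66 (-1.73 to -1.59) for old over control and 1.14 (1.07 to 1.21) for control over young. For *Srm* the control library stood further from the young library of the same age than the old library did.

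The nucleolar core proteins are found in the nucleolus, and some of them act as chaperones or helicases there. *Ncl* (nucleolin, chr1:86344719-86359400, minus strand) was at 197 CPM in the young, 145 CPM in the old and 259 CPM in the control library, and *Npm1* (nucleophosmin) at 299, 202 and 374 CPM. *Npm3*, a nucleophosmin relative, was at 102, 60.4 and 138 CPM (old over young -0.76, -0.80 to -0.71). *Nolc1*, which carries small nucleolar ribonucleoproteins, was at 24.9, 17.5 and 32.3 CPM. *Gnl3* (nucleostemin, a GTP-binding protein) was at 15.8, 10.5 and 29.7 CPM (old over young -0.59, -0.71 to -0.47), and *Ddx21*, an RNA helicase, at 26.2, 16.4 and 34.7 CPM (-0.68, -0.77 to -0.59). All 6 had the order old, young, control. All 6 were lower in the old than in the control library by at least 1.5 times (background 8.78%), and 3 were so against the young library (background 14.7%). Of these 3, *Ddx21* and *Gnl3* were within the limit without the marked cells, and *Npm3* was not. *Gnl3* overlaps *Pbrm1* and *Npm3* overlaps *Gm15491* on the other strand, and whether strand was used in counting is not given in the sources used here. *Npm1* has processed copies elsewhere in the genome, and how reads that match both were counted is not given either.

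Of the box C/D proteins, which add methyl groups to ribosomal RNA, *Fbl* (fibrillarin, the methyltransferase) was at 54.4 CPM in the young, 28.1 CPM in the old and 54.5 CPM in the control library. Its log2 ratio was -0.95 (-1.02 to -0.89) against young and -0.96 (-1.02 to -0.89) against control, and the young and control libraries differed by 0.00 (-0.06 to 0.06). Without the marked cells it was at 41.3 CPM in the young library, and control over young was 0.38. The scaffold genes *Nop56* and *Nop58* were at 46.7, 33.6 and 67.0 CPM and at 32.4, 23.8 and 52.1 CPM. *Rrp9*, which binds the U3 small nucleolar RNA, was at 6.00, 4.48 and 9.98 CPM and just under the minimum of 10. *Nop56* overlaps *Idh3b* and *Rrp9* overlaps *Parp3* on the other strand.

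Of the box H/ACA proteins, which turn uridines into pseudouridines, *Dkc1* (dyskerin, the enzyme) was at 22.8 CPM in the young, 16.3 CPM in the old and 31.6 CPM in the control library. *Nop10* was at 277, 159 and 370 CPM, with log2 ratios of -0.80 (-0.83 to -0.78) for old over young and -1.22 (-1.25 to -1.20) for old over control. *Gar1* was at 31.7, 23.1 and 43.8 CPM. *Nhp2* was at 112, 103 and 165 CPM, and its old over young ratio of -0.12 (-0.16 to -0.08) was the nearest to 0 of these 4 genes. *Nhp2* overlaps *Rmnd5b* and *Dkc1* overlaps *Mpp1* on the other strand.

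Among the 7 small subunit assembly genes, *Wdr43*, a part of the early processome, was at 22.1 CPM in the young, 16.4 CPM in the old and 30.7 CPM in the control library. *Bysl* (bystin) was at 10.8, 11.3 and 16.1 CPM and 1 of the 3 genes not below 0 in old over young (log2 0.07, -0.05 to 0.20). It overlaps *Ccnd3* on the other strand. *Utp4*, also of the processome, was at 9.54, 5.79 and 12.5 CPM, and *Nob1*, the nuclease that makes the end of the small ribosomal RNA, at 8.91, 4.95 and 10.5 CPM. *Wdr75* was at 5.11, 3.73 and 7.29 CPM, *Tsr1* at 3.95, 2.17 and 4.82 CPM, and *Rrp12* at 2.18, 1.53 and 2.75 CPM. These last 3 did not reach 10 CPM in any library.

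Among the 11 large subunit assembly genes, *Pes1*, *Bop1* and *Wdr12* encode the 3 proteins of the PeBoW complex. *Pes1* was at 18.1 CPM in the young, 13.7 CPM in the old and 16.7 CPM in the control library, *Bop1* at 10.8, 8.47 and 13.8 CPM, and *Wdr12* at 19.0, 12.8 and 23.7 CPM. *Pes1* was the single member at 10 CPM or more with a lower level in the control than in the young library (log2 -0.11, -0.22 to -0.01), and without the marked cells its ratio was 0.01. *Rrs1* was at 30.8, 23.8 and 44.7 CPM, *Nip7* at 23.4, 19.99 and 32.8 CPM, *Mrto4* at 41.4, 35.8 and 56.8 CPM, and *Nop16* at 12.9, 9.82 and 21.004 CPM. *Noc2l* was at 7.24, 3.997 and 10.9 CPM, with a log2 ratio of -1.44 (-1.60 to -1.29) for old over control, and *Nop2*, a methyltransferase, at 6.77, 4.87 and 9.02 CPM.

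The last 2 large subunit genes did not follow the list in old over young. *Ebna1bp2* was at 94.8 CPM in the young, 94.6 CPM in the old and 135 CPM in the control library, and its old over young interval included no difference (log2 0.00, -0.05 to 0.04). *Eif6*, which binds the large subunit and keeps it from joining the small one too early, was at 206, 216 and 220 CPM. Its log2 ratio was 0.07 (0.04 to 0.10) for old over young, -0.02 (-0.05 to 0.00) for old over control and 0.09 (0.06 to 0.12) for control over young, so that it was the member that varied least between libraries. Other genes overlap on the other strand for *Eif6* (*Gm16098*), *Pes1* (*4930556J24Rik*), *Bop1* (*Mroh1* and *Scx*), *Wdr12* (*Carf*), *Noc2l* (*Samd11*), *Tsr1* (*Srr*), *Polr1e* (*Fbxo10*) and *Polr1a* (*Gm26628*).

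The old library was further from the control than from the young library. All 38 genes were lower in the old library, a count given without a share over all genes. The median log2 ratio of the 38 was -0.91. Of the 30 that reached 10 CPM, 25 were lower by at least 1.5 times, against a background of 8.78% of 5470 genes, and none was higher (background 5.37%). Their median was -0.92 beside -0.08 over all genes. Among the 25, *Myc*, *Utp4*, *Nob1*, *Bop1*, *Nop16* and *Noc2l* passed the minimum only through the control library, which fixed their direction. The 5 that reached 10 CPM and stayed within the limit were *Ubtf*, *Bysl*, *Pes1*, *Ebna1bp2* and *Eif6*. Both comparisons use the same old library and are not independent of each other.

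The young and control libraries, both of 3 months, differed as well. In control over young, 36 of the 38 genes were above 0, and the median log2 ratio was 0.42. Of the 30 at 10 CPM or more, 5 were higher by at least 1.5 times (background 1.59%): *Srm* (1.14), *Gnl3* (0.91), *Nop16* (0.71, 0.60 to 0.82), *Nop58* (0.69, 0.62 to 0.76) and *Noc2l* (0.59, 0.44 to 0.74). None was lower (background 6.62%). Among the 5, *Noc2l* passed the minimum only through the control library, which fixed its direction. Without the marked cells 17 of 30 were higher (background 2.82%), and without strongly marked cells, by a stricter rule given further on, 10 of 30 (background 2.21%), so the number depends on those cells. The median over the 30 was 0.46 with all kept cells, 0.61 and 0.54 without them. The first of these stands beside -0.44 for old over young, and both comparisons use the young library.

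The bands of *Mpo* parted the comparisons. In old over young, the median over all 38 genes was -1.001, -0.72, -0.16, 0.20 and 0.18 from the lowest to the highest band, with 37, 35, 30, 9 and 10 of the 38 below 0. Over all genes at 10 CPM or more the medians were -0.18, -0.16, 0.00, 0.01 and -0.03. Among members at 10 CPM or more, 14 of 20, 13 of 21, 1 of 21, 0 of 29 and 0 of 34 were lower by 1.5 times, against a background of 19.7%, 16.2%, 10.7%, 10.1% and 9.88%. The number that reach 10 CPM changes from band to band, and no member was higher by 1.5 times in any band (background 5.49%, 4.62%, 5.6%, 5.47% and 3.86%). With the 5 bands given equal weight the median over the 38 genes was -0.02, 21 were below 0 and none was past the limit (background 4.2% higher and 10.5% lower). Without the marked cells, the equal-weight median over the 28 at 10 CPM or more was 0.16. Of these, 21 were above 0 and 0 past the limit (background 5.15% higher and 7.18% lower). With all kept cells, the interval of 16 genes lay below 0 in the lowest and above 0 in the highest band, and for none was it the other way round. This count was not taken over all genes or without the marked cells, so it cannot show a turn particular to the list.

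**Figure D4:**
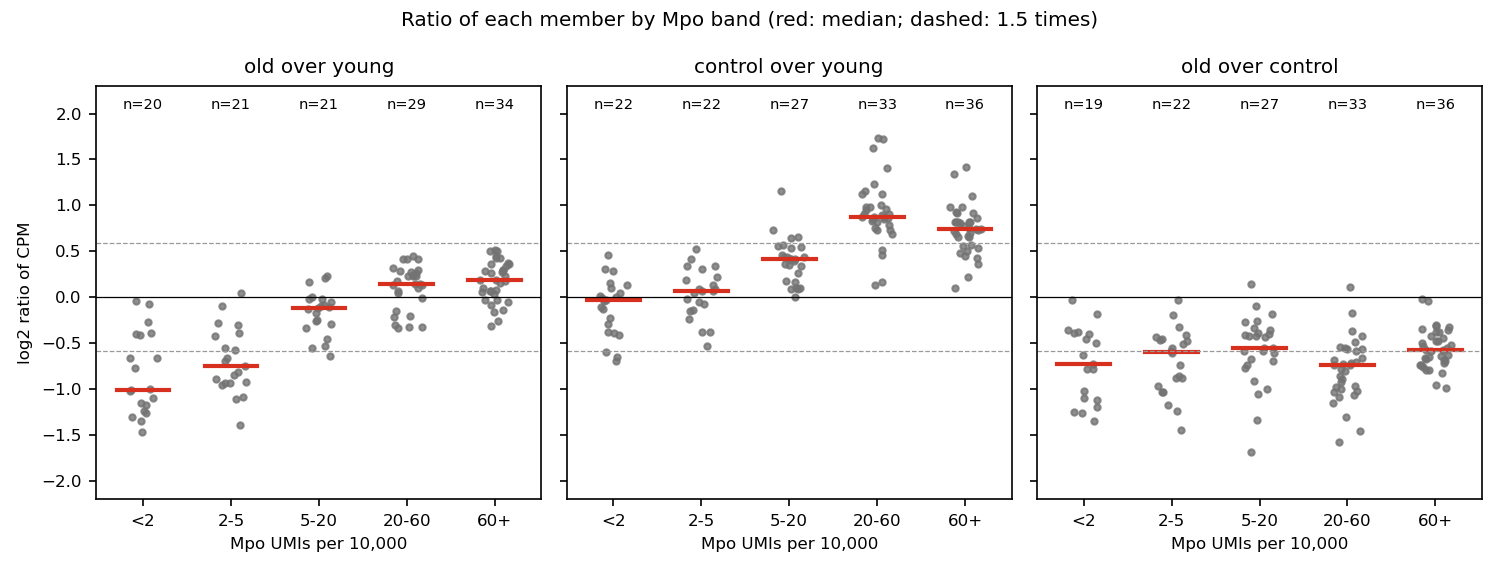
Log2 ratio of CPM of each gene that reached 10 CPM in either library (grey points, n above each band) against the band of *Mpo* UMIs per 10000, for old over young, control over young and old over control; red bars are medians and dashed lines mark 1.5 times. The medians go from -1.01 to 0.18 in old over young and from -0.04 to 0.74 in control over young, and lie between -0.74 and -0.55 in old over control.

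*Npm1*, *Ncl* and *Gnl3* turned between the bands. *Npm1* was at 201 CPM in the young and 94.0 CPM in the old library in the lowest band, and at 656 and 747 CPM in the highest, beside 132 and 1160 CPM in the control library. *Ncl* was at 126 and 74.1 CPM in the lowest and at 454 and 506 CPM in the highest band, beside 97.1 and 803 CPM in the control library. *Gnl3* was at 7.31 and 2.50 CPM in the lowest and at 49.8 and 71.2 CPM in the highest band, beside 5.69 and 126 CPM. For all 3, the young library was the highest in the lowest band and the lowest in the highest band when all kept cells were used. Without the marked cells the young library was at 119, 89.3 and 3.795 CPM for *Npm1*, *Ncl* and *Gnl3* in the lowest band, below the control library at 129, 96.2 and 5.47 CPM and above the old library at 91.4, 73.7 and 2.32 CPM. Its lead over the control library there was not seen without the marked cells, whereas the turn against the old library was: in the highest band the young values were then 639, 445 and 47.3 CPM and the old values 741, 500.2 and 70.03 CPM. *Fbl* and *Nop10* did not turn: *Fbl* was at 122 CPM in the young and 109 CPM in the old library in the highest band, and *Nop10* at 724 and 710 CPM.

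In old over control the medians over the 38 genes were -0.75, -0.76, -0.55, -0.73 and -0.58 from the lowest to the highest band, and 33 of the 38 genes were below 0 in all 5 bands. Over all genes at 10 CPM or more the medians were -0.06, -0.07, 0.05, -0.01 and -0.04. Among members at 10 CPM or more, 11 of 19, 11 of 22, 12 of 27, 24 of 33 and 16 of 36 were lower by 1.5 times (background 8.93%, 7.42%, 4.62%, 7.48% and 4.29%). None was higher in any band (background 7.87%, 6.76%, 7.08%, 6.33% and 5.05%). In the highest band 38 of 38 genes were below 0. With bands of equal weight the median over the 38 genes was -0.62, and 19 of 32 were lower and none higher by 1.5 times (background 4.65% and 5.04%).

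In control over young the medians over the 38 genes were -0.01, 0.07, 0.41, 0.88 and 0.73, and all 38 genes were above 0 in each of the upper 2 bands. Over all genes at 10 CPM or more the medians were -0.11, -0.09, -0.05, -0.01 and -0.03. Among members at 10 CPM or more, 0 of 22, 0 of 22, 4 of 27, 29 of 33 and 26 of 36 were higher by 1.5 times (background 1.75%, 1.45%, 2.01%, 6.48% and 5.51%). In the lowest band 3 were lower, and in the other bands none (background 9.83%, 8.46%, 6.79%, 7.24% and 7.45%). With bands of equal weight 21 of 32 were higher and none lower (background 2.9% and 6.21%). Without the marked cells, 27 of 32 were higher and 0 lower with equal weight (background 4.3% and 3.54%). In the lowest band 19 of 19 were then above 0, with 4 higher and 0 lower (background 2.78% and 3.94%).

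Cells with markers of another blood cell type moved with the young values in the lower bands. The rule above marked 16.5% of the young cells in the lowest and 16.5% in the highest band, and 1 of its lists, that of NK and T cells with *Nkg7* in it, summed to 131 to 238 CPM in the lowest and 1896 to 2244 CPM in the highest band of the 3 libraries. A stricter rule of at least 10 UMIs from at least 3 genes of a list, chosen after the data were seen, marked 12.4% of the young cells in the lowest and 2.74% in the highest band, and at most 1.20% of the cells in any band of the old and control libraries. In those strongly marked young cells the 38 genes summed to 3342 CPM (3297 to 3387), against 1727 CPM (1718 to 1737) in the other young cells. In the lowest band of the young library, dendritic cell markers summed to 609 CPM, B progenitor markers to 244 CPM and monocyte markers to 235 CPM, while in the old and control libraries these were 15.7 and 15.6 CPM, 3.41 and 6.17 CPM, and 29.6 and 31.0 CPM. Basophil and mast cell markers were at 101, 8.19 and 19.8 CPM, and erythroid markers at 13.7, 0.15 and 0.16 CPM there. No gene of these 5 lists was at 0 in the lowest band of the young library, and 4 of 6 erythroid markers in the old and 5 of 6 in the control library were.

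Without the marked cells the old over young ratio of the summed level was -0.32 (-0.35 to -0.28) in the lowest and 0.19 (0.18 to 0.21) in the highest band, and without the strongly marked cells -0.38 (-0.41 to -0.34) and 0.18 (0.16 to 0.19). With all kept cells it was -0.69 (-0.72 to -0.66) and 0.18 (0.16 to 0.19). The difference in the lowest band was smaller without those cells, and the turn between the outer bands was there in all 3 sets. In the middle band, 5 to under 20, the ratio changed sign, from -0.13 (-0.16 to -0.11) with all kept cells to 0.09 (0.06 to 0.12) and 0.05 (0.02 to 0.08) without them. Of the members at 10 CPM or more, 3 of 14 and 4 of 14 were then lower by 1.5 times in the lowest band (background 10.8% and 11.5%). In control over young, the summed ratio in the lowest band was -0.13 (-0.16 to -0.10) with all kept cells, 0.24 (0.20 to 0.27) without the marked and 0.18 (0.14 to 0.22) without the strongly marked cells, and in old over control it was -0.56, -0.55 and -0.55. The old library also held more maturing neutrophil markers in the lowest band (5 genes, 3093 CPM against 1275 in the young and 873 in the control library), and their part in the result was not tested.

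Other genes of the same pathway, 109 by function, of which 108 were found, were described in the same way. In old over young, of 74 that reached 10 CPM, 64 were below 0, with a median of -0.26 beside -0.15 over all genes, and 0 were higher and 5 lower by 1.5 times (background 4.36% and 14.7%). In old over control it was 70 of 77 below 0, a median of -0.38 beside -0.08, with 0 higher and 21 lower (background 5.37% and 8.78%), of which 15 were among the 38 large subunit factors tested. In control over young the median was 0.16 beside -0.06, with 1 of 78 higher and 1 lower (background 1.59% and 6.62%). With bands of equal weight the medians became -0.02, -0.26 and 0.25. Without the marked cells they were -0.11, -0.39 and 0.25, with 0 of 69 past the limit in old over young, and 47 of these 69 were below 0. Of the genes at 50 CPM or more, the lowest in old over young were *Ddx24* (62.8 and 40.2 CPM in young and old, log2 -0.65), an RNA helicase, *Utp11l* (58.9 and 45.7 CPM, -0.37), *Lyar* (60.8 and 49.2 CPM, -0.31), *Top1* (topoisomerase I, 171 and 139 CPM, -0.30) and *Rrp1* (56.5 and 46.8 CPM, -0.27). The 5 highest at 50 CPM or more were taken over a wider list, with MYC partners and polyamine genes added. All 5 were among the added genes and not among the 108: *Mxd1* (0.68), *Azin1* (0.45), *Max* (0.21), *Sat1* (0.15) and *Mycbp* (0.10).

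Ribosomal protein genes, the products that are assembled, went the other way over all kept cells, by small amounts. The 86 genes made up 11.5% of UMIs in the young, 12.3% in the old and 10.95% in the control library. Of the 83 at 10 CPM or more, 61 were above 0 in old over young (median 0.09 beside -0.15 over all genes), with 0 higher and 2 lower by 1.5 times (background 4.36% and 14.7%). In old over control 71 were above 0 (median 0.16 beside -0.08), with 0 higher and 0 lower (background 5.37% and 8.78%). In control over young 62 were below 0 (median -0.07 beside -0.06), and without the marked cells 62 were above 0 (median 0.06), so that direction turned. In old over young the median without those cells was 0.23, and 76 of 83 were above 0. The amounts were larger in the lowest band. There the old over control median was 0.45, with 21 of 83 higher and 0 lower (background 7.87% and 8.93%). The old over young median there was 0.21, with 1 higher and 2 lower (background 5.49% and 19.7%). Without the marked cells it was 0.52, with 31 of 83 higher and 0 lower (background 7.68% and 10.8%). In the highest band their old over control median was 0.05, beside -0.58 for the 38 nucleolar genes, and their control over young median 0.05, beside 0.73. They too were higher with *Mpo*, 2.92, 2.68 and 3.60 times between the outer bands of the young, old and control libraries (3.65 times in the young library without the marked cells).

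Cell cycle genes ran partly apart from the nucleolar genes along *Mpo*. The 20 S phase genes summed to 1.63, 2.33 and 1.80 times as much in the highest as in the lowest band of the young, old and control libraries. The 20 G2/M genes summed to 0.59, 0.68 and 0.52 times as much. In the lowest band, S phase genes went the same way as the nucleolar genes in old over young. Of 19 at 10 CPM or more, 18 were below 0, with a median of -0.63, and 10 were lower past the limit (background 19.7%). Without the marked cells 17 of 19 were below 0, with a median of -0.51 and 7 lower (background 10.8%). The G2/M genes had medians of -0.28 and -0.18 there, with 1 and 0 of 20 lower. Any tie to the level of the 38 genes was not tested. In the highest band of the young, old and control libraries, S phase genes were at 2450, 2539 and 2349 CPM. G2/M genes were at 1692, 1639 and 1326 CPM there. The control library, highest for the 38 nucleolar genes, was the lowest for G2/M genes, with a control over young median of -0.38 and 0 of 20 above 0. For S phase genes the libraries lay close together. Their control over young median was -0.06 beside -0.03 over all genes, with 8 of 20 above 0.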

How the data were processed

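CD133+ cells sorted from mouse bone marrow were sequenced with the 10x 3′ kit, and the authors deposited, for each of 3 libraries, the UMI count of each of 27998 genes in each cell, as whole numbers that were not normalized. The submitters' processing notes name STAR, Cell Ranger 2.1.0 and the mm10 build. A cell was kept if it had 200 genes or more, if mitochondrial genes took 20% of its UMIs or less, and if its UMI total lay between the 5th and the 95th percentile (of young and old pooled, and of control alone). No doublet caller was run. Counts were summed per library or *Mpo* band and divided by the UMI total of the same cells (CPM). CPM intervals are exact Poisson intervals and ratio intervals exact conditional binomial ones. With bands of equal weight, the CPM values of the 5 bands were averaged.

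Calls of size were made over all genes that reached 10 CPM in 1 of the compared libraries. A gene under 10 CPM in the other library could then only be lower there, among members and all genes alike. Groups follow the labels, 1 library each, so no test was made. The members, lists and limits were chosen with earlier results of these data known. All members are given. Further pathway genes are named if among the 5 lowest or the 5 highest in old over young at 50 CPM or more. *Mxd4*, *Mlx*, *Mxi1* and *Odc1* are named outside this rule. Gene positions are from GENCODE M21 (GRCm38), in which 27645 of 27998 identifiers were found. Python 3.11.15, numpy 2.4.6, scipy 1.17.1 and pandas 2.3.3 were used. The calls were also run on simulated counts drawn with counting error only. The simulation held no difference between mice, libraries or cell mixes, so it cannot show how calls fare between single libraries.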

Additional observations from a re-analysis of the deposited data

Results flagged for a closer look

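The summed level of the 38 genes in old over young was below 0 in the lowest band of *Mpo* (log2 ratio -0.69) and above 0 in the highest band (0.18), with intervals on opposite sides of 0. In control over young it was -0.13 in the lowest and 0.75 in the highest band. With 1 library a group, the difference between the bands was not tested, and both pairs share the young library. Without cells that carried markers of another blood cell type, the control over young value of the lowest band was above 0 (0.24), whereas that of old over young was still below 0 (-0.32).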

How the results depend on the processing

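No paired analysis was possible because each group has 1 library and the labels give no replicate numbers, and for the same reason no replicate could be left out. The 15 summary results were recomputed under up to 14 alternatives, giving 177 values, of which 126 stayed close to the reported value (a count within 1.5 times, a median within the interval of the gene at the median) and 51 moved. None went from past 1.5 times to the other side of 0, but 3 of the 105 ratios among them, all smaller, changed sign: the old over young median with bands of equal weight, and the highest minus the lowest band in old over control, which went from 0.16 to -0.11 at a minimum of 50 CPM and to -0.19 with bands of *Elane*. With the 5 *Mpo* bands weighted equally, the medians became 0.0042 (old over young), -0.66 (old over control) and 0.62 (control over young), with 0 members lower in old over young and 21 higher in control over young, and *Gnl3* in old over young turned from -0.59 to 0.19. Without cells marked as other blood cells the medians were -0.28 for old over young and 0.61 for control over young (17 higher), the highest minus the lowest band was 0.59 and 0.42, and high over low *Mpo* in young 2.60. Without strongly marked cells, a rule chosen after seeing the data, these were -0.35 for old over young, 10 higher in control over young, 0.70 for old over young between bands and 2.53 in young.

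Without limits on the UMI count the old over young median was -0.38, its difference between bands 1.72, that of control over young 1.15 with 8 higher over all cells, and high over low *Mpo* in young 1.63. Limits taken over the 3 libraries together gave -1.001 for old over control. As mean UMIs per cell, unscaled, the values were -0.16 and 2 lower (old over young), -0.59 and 15 lower (old over control), and 3.46 and 2.46 for high over low *Mpo* in control and young. Centred on all genes they were -0.30, -0.84, 8 higher (control over young), and 2.29, 1.53 and 2.58 for high over low *Mpo* in control, young and old. Outside ribosomal protein, mitochondrial and granule genes, high over low *Mpo* was 3.39 in control and 2.50 in young. Thinned to 3000 UMIs a cell, the medians were -0.48 (old over young) and 0.37 (control over young).

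A minimum of 50 CPM gave -0.50 and 3 lower in old over young, 10 lower in old over control and 2 higher in control over young, since fewer genes pass, and a minimum of 1 CPM gave 11 lower in old over young. At a limit of 2 times the counts were 1 lower, 11 lower and 1 higher. With 3 bands cut at 10 and 50 the difference between bands was 0.87 in old over young, and high over low 2.63 in control. With 5 equal bands of *Elane*, it was 1.09 in control over young, and high over low was 2.76, 1.53 and 2.60 in control, young and old. The cause of these shifts was not tested. The RNA polymerase I subunits stayed under 10 CPM over all kept cells and so entered no count of calls there.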

Other observations

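Genes that act beside MYC went both ways in old over young. Of the 7 MYC partners at 10 CPM or more, 4 were above 0 and 3 below, with a median log2 ratio of 0.10 beside -0.15 over all genes, and 1 was higher and 1 lower by 1.5 times (background 4.36% and 14.7%). In the lowest band of *Mpo* 1 of 7 was higher and 0 lower (background 5.49% and 19.7%). In the highest band 0 of 8 were higher and 2 lower (background 3.86% and 9.88%). The values below are for all kept cells. *Mxd1*, which pairs with MAX and opposes MYC, was at 49.3 CPM in the young, 79.0 CPM in the old and 69.9 CPM in the control library, a log2 ratio of 0.68 (0.62 to 0.73) for old over young. *Max*, the partner of both, was at 86.8, 100.2 and 88.8 CPM, and *Mycbp* at 49.6, 53.1 and 56.1 CPM. The gene past the limit downwards, named after its values were seen, was *Mxd4*, of the same family as *Mxd1*, at 21.3, 10.9 and 9.69 CPM (-0.97, -1.07 to -0.86). The other two below 0 were *Mlx* (-0.06) and *Mxi1* (-0.03).

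Among 8 other polyamine genes, of which 6 reached 10 CPM in old over young, *Odc1*, the enzyme of the first step of polyamine synthesis, was at 16.2 CPM in the young, 11.6 CPM in the old and 25.9 CPM in the control library. This is the order of *Srm*, the enzyme of a later step. *Odc1* lies under the 50 CPM of the rule for naming further genes, so it is a single chosen gene and does not describe the polyamine genes. *Azin1*, which spares ornithine decarboxylase (*Odc1*) from breakdown, was at 51.1, 69.7 and 57.9 CPM, and *Sat1*, which starts polyamine breakdown, at 242, 267 and 212 CPM, with the old library the highest for both.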
